A study of Mus musculus with 6 samples.

Results

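The genes described here encode 42 proteins of synaptic vesicles, of the release machinery, of the photoreceptor and bipolar ribbon, and of the adhesion and scaffold layer around the synapse. They were taken by gene name from a count table of 54532 mouse genes, 17108 of which had enough counts to be tested. All 42 were found under a single gene ID and all 42 were tested. The samples were retinas of C57BL/6J mice labelled as wild type at postnatal day 17. In the first group, 3 samples came from mice with oxygen-induced retinopathy (OIR), in which pups breathe excess oxygen, lose retinal capillaries and, back in room air, develop a hypoxic retina with abnormal vessel growth. In the second group, 3 samples came from normal mice of that age. The sources used here do not give the oxygen schedule or the number of animals behind each sample, so p-values measure the spread between these samples, which may be technical. The comparison asks how synaptic genes of OIR retina stand against those of normal retina, and ribbon-synapse isoforms against conventional ones.

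A transmitter vesicle is filled, tethered to the active zone, primed, fused by the SNARE proteins when calcium enters, and then retrieved by endocytosis. The retina has a pair of synapse types that share most of this machinery. Rods, cones and bipolar cells release glutamate continuously from ribbon synapses, where a plate built of RIBEYE holds vesicles near the release sites, while amacrine, horizontal and ganglion cells lack ribbons and amacrine cells use conventional synapses. Several proteins come in versions that differ between the synapse types. Syntaxin 3 (Stx3), complexins 3 and 4 (Cplx3, Cplx4) and RIM2 (Rims2) are the usual versions at retinal ribbons, and Unc13b and Sv2b are also found there. Syntaxin 1 (Stx1a), complexins 1 and 2 (Cplx1, Cplx2) and the synapsins (Syn1, Syn2) belong mainly to conventional synapses. This division is not absolute, since complexin 3 also occurs in some amacrine cells.

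Depth was 15818168 to 17163513 counts per library, and the members held 1.26% to 1.28% of the counts in OIR libraries and 1.42% to 1.48% in normal libraries. Each member had at least 142 counts in every library. Rod markers were the most abundant of the retinal marker lists, with a summed level of 44479.7 to 49565 CPM (counts scaled by TMM to a common library size of 1e+06) in OIR libraries and 54273 to 58395 CPM in normal libraries. Lens genes were uneven, at 97.4, 469 and 7789 CPM in OIR libraries 1 to 3 and 11.5, 416 and 517 CPM in normal libraries 1 to 3, and none of the 16 lens genes passed in edgeR, while 11 were higher at an unadjusted p under 0.05. With those genes left out before scaling, the same 22 members passed, all lower. By Xist and Y-linked transcripts, 1 OIR and 2 normal libraries were male and 2 OIR and 1 normal library were female.

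Many of the synaptic transcripts were lower in OIR retina, by modest amounts. Of the 42 members, 22 fell and 0 rose at an adjusted p under 0.05 (edgeR's quasi-likelihood test, Benjamini-Hochberg over all genes), and the other 20 did not pass. DESeq2 and limma-voom also called 0 members higher, and 1 member, Cplx4, was higher at an unadjusted p under 0.05 in edgeR. Over all genes tested, 8.73% were lower and 11.1% higher by the same rule, and 19.8% were called in either direction. The falls lay between −0.30 and −0.71 on the log2 scale, which is 18.8% to 38.8% less RNA, and no member changed 2-fold. The median log2 change was −0.31 over the members and 0.01 over all genes tested. The members were chosen with earlier results of these data known, so the shares are not an independent contrast. The OIR and normal libraries did not overlap for 26 members, 25 of them lower in OIR, against 36.8% of all genes without overlap and 18.1% with that separation downwards. Summed over the members, the level was 12331, 12600.1 and 12595 CPM in OIR libraries 1 to 3 and 15246, 14244 and 14904 CPM in normal libraries 1 to 3. Whole retina was measured, so fewer cells of a type and less RNA per cell cannot be told apart.

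Normal library 2 lay nearest to the OIR libraries: among the 22 members that fell, it was the lowest normal library for 19. It was also the female normal library. All 22 were lower within each sex. Their OIR and normal libraries did not overlap, so any split by sex had to give that sign. Their median log2 difference was −0.45 among male libraries, with 1 OIR library, and −0.30 among female libraries, with 1 normal library. Over all members, the difference was negative for 35 among male and for 29 among female libraries. With sex in the model, 20 of the 22 passed. Fits without OIR library 1, OIR library 2 or normal library 3 called 15, 17 and 17 members, all lower. Across all 15 alternative fits, 15 of the 22 passed every time, and the others, Dnm1, Erc2, Nrxn3, Nsf, Rab3a, Rims2 and Sv2c, missed the threshold in at least 1.

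**Figure D1:**
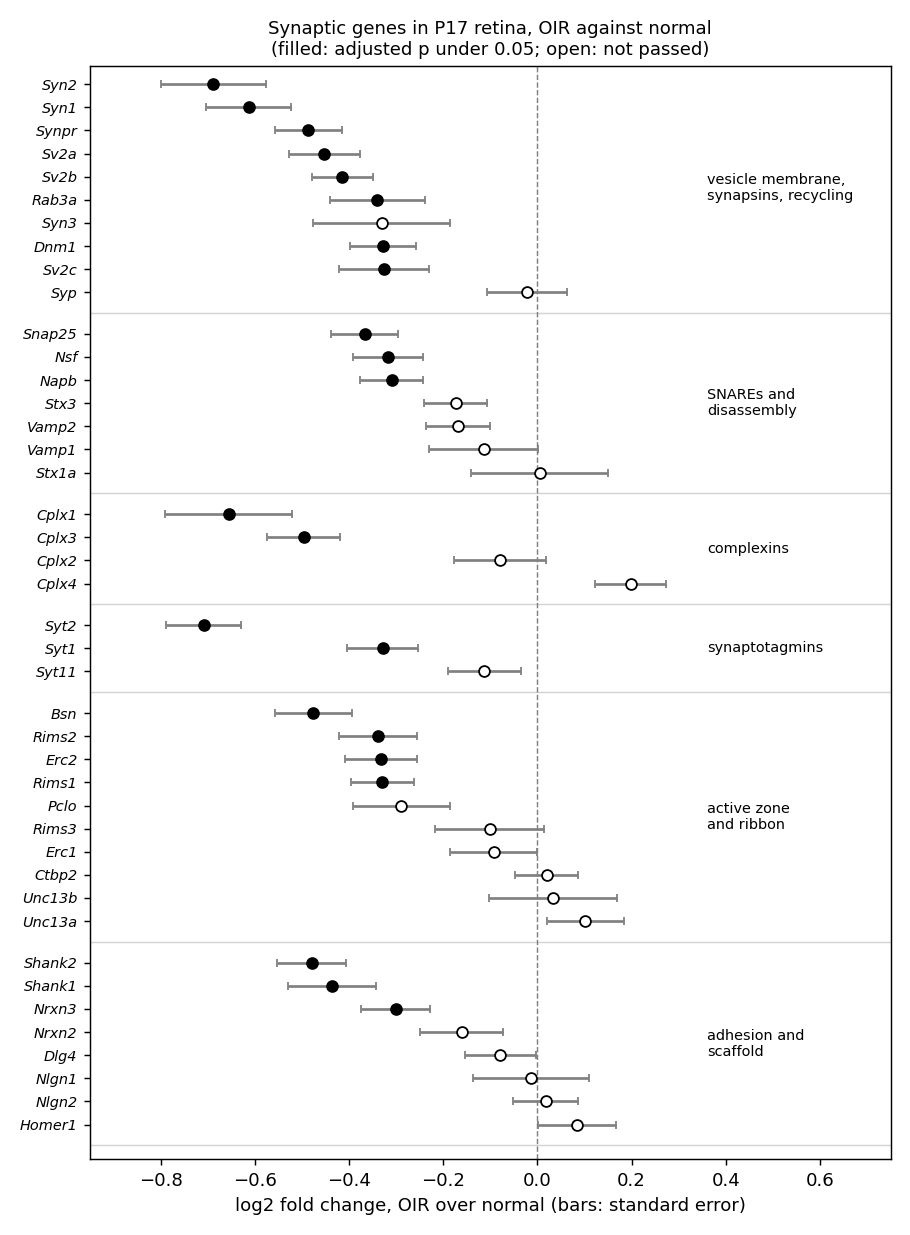
Log2 fold change of each of the 42 synaptic genes, OIR over normal, with its standard error, grouped by role. Filled points passed at an adjusted p under 0.05 and all 22 lie left of 0, with Syt2 lowest at −0.71, while Cplx4 lies farthest right at 0.20 and is open.

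Genes of the vesicle membrane and its recycling fell in 8 of 10 cases, against 8.73% lower over all genes tested. Their median log2 change was −0.38. Synapsins are phosphoproteins that coat vesicles and hold them in a reserve pool. Syn1 had 138, 150.3 and 166 CPM in OIR libraries 1 to 3, against 243, 205 and 247 CPM in normal libraries 1 to 3. Its log2 change was −0.61 with a standard error of 0.09 (adjusted p in edgeR 0.000897). Syn2 had 50.6, 52.2 and 60.8 CPM in OIR retina, against 98.7, 74.5 and 90.3 CPM in normal retina, a log2 change of −0.69 (adjusted p in edgeR 0.00167). In both genes every OIR library was below every normal library, and normal library 2 was the lowest of its group. Syn3, the scarcest member, also had groups apart, at 9.67, 8.49 and 8.34 CPM in OIR retina, against 10.96, 9.73 and 12.7 CPM in normal retina, yet its log2 change of −0.33 did not pass (adjusted p in edgeR 0.141). The exons of Syn3 share 1733 bases with Timp3 on the opposite strand, which had 8688 counts in all against 990 of Syn3, and reads of the 2 genes cannot be told apart without strand. Syn1 lies on the X chromosome, and its log2 difference was −0.70 among male and −0.44 among female libraries. Syn2, on chromosome 6, had −0.85 among male and −0.43 among female libraries. The fall was larger among male libraries for 21 of the 22 members that fell.

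The SV2 glycoproteins, which resemble transporters and are needed for normal priming, fell together. Sv2b had 485, 473 and 511 CPM in OIR retina, against 655, 647 and 657 CPM in normal retina, and Sv2a had 396, 431 and 428 CPM in OIR retina, against 611, 528 and 578 CPM in normal retina. Their log2 changes were −0.41 and −0.45 (adjusted p in edgeR 0.00136 and 0.00207), and neither gene's groups overlapped. The third paralog, Sv2c, had 74.8, 72.8 and 73.04 CPM in OIR retina, against 97.2, 78.5 and 101 CPM in normal retina, with a log2 change of −0.33 (adjusted p in edgeR 0.0359), and it passed in 8 of the 15 alternative fits. The normal library nearest to the OIR values was again library 2. Synpr, which encodes the synaptophysin relative synaptoporin, had 178, 173 and 196 CPM in OIR retina, against 256, 239 and 271 CPM in normal retina, a log2 change of −0.49 (adjusted p in edgeR 0.000934). Synaptophysin itself, an abundant vesicle membrane protein, did not follow: Syp had 742, 751 and 711 CPM in OIR retina, against 838, 726 and 674 CPM in normal retina, and its log2 change of −0.02 did not pass (adjusted p in edgeR 0.89). The ratio of these relatives was not tested. Rab3a, the GTPase of docked vesicles, had 298, 318 and 344 CPM in OIR retina, against 471, 360.5 and 383 CPM in normal retina (log2 change −0.34, adjusted p in edgeR 0.0373). It passed in 8 of the 15 alternative fits, and without normal library 1 its log2 change was −0.22 (adjusted p in edgeR 0.0587). Dnm1, the dynamin that pinches off endocytic vesicles, had 609.7, 656 and 656 CPM in OIR retina, against 818, 759.6 and 836 CPM in normal retina (log2 change −0.33, adjusted p in edgeR 0.00816).

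**Figure D2:**
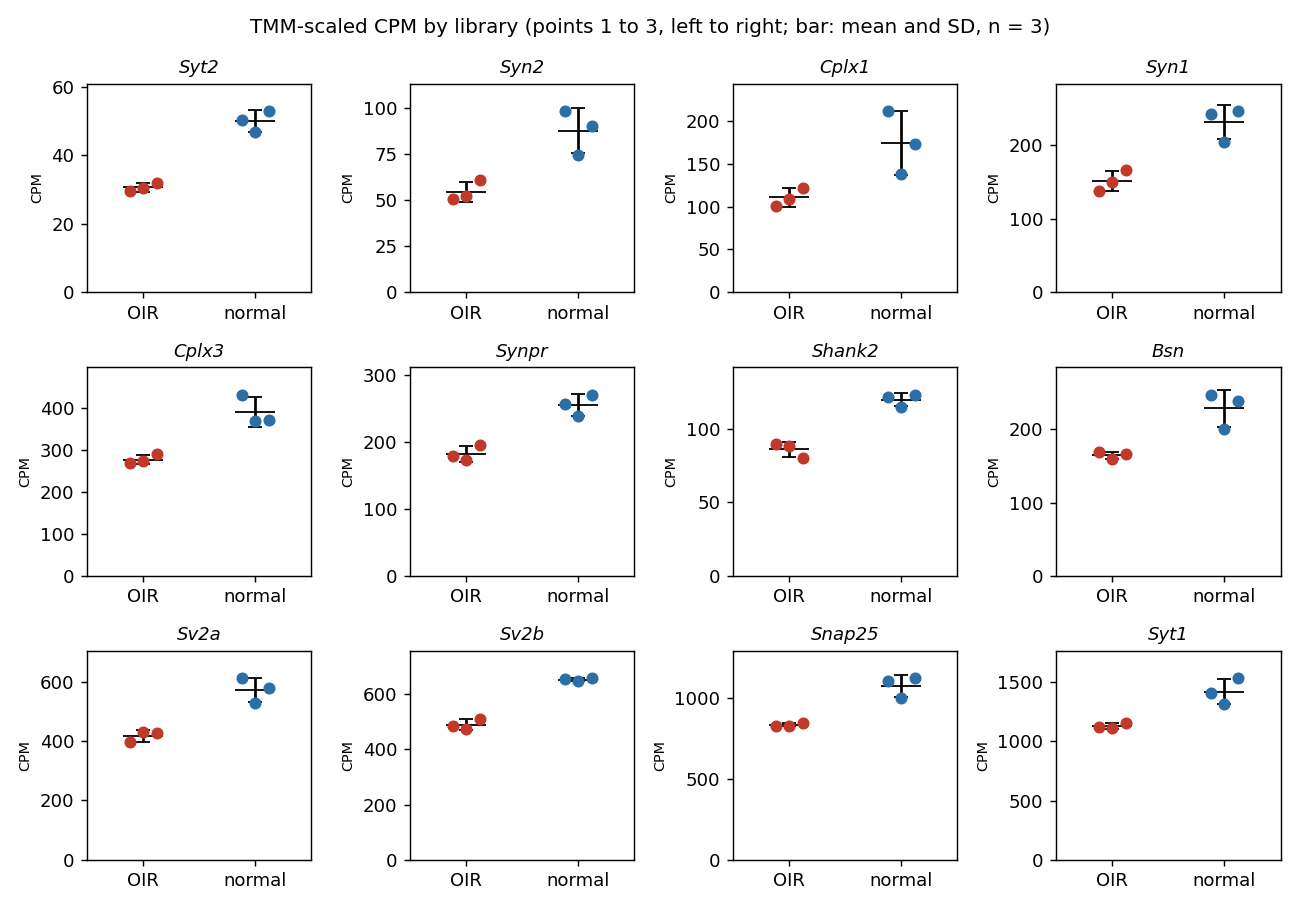
TMM-scaled CPM of 12 members that fell, by library, with OIR libraries left and normal libraries right, and the mean and SD of 3 libraries as bars. In every panel the highest OIR library is below the lowest normal library. In Cplx1, OIR library 3 had 122 CPM and normal library 2 had 138 CPM.

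Among the SNAREs and the proteins that take them apart, 3 of 7 fell, against 8.73% lower over all genes tested. Snap25, the membrane SNARE shared by both synapse types, had 828, 828 and 843 CPM in OIR retina, against 1106, 997 and 1119.6 CPM in normal retina. Its log2 change was −0.37 with a standard error of 0.07 (adjusted p in edgeR 0.00458), and the groups did not overlap. Nsf, the ATPase that separates spent SNARE complexes, and Napb, its adaptor beta-SNAP, fell by 0.32 and 0.31 on the log2 scale (adjusted p in edgeR 0.0126 and 0.00834). Nsf had 555, 596 and 584 CPM in OIR retina, against 749.8, 662 and 749.6 CPM in normal retina, and Napb had 363, 369.7 and 369.6 CPM in OIR retina, against 469.7, 428 and 469 CPM in normal retina. The vesicle SNARE gene Vamp2 had 852, 883 and 905 CPM in OIR retina, against 1039, 973 and 956 CPM in normal retina, groups that did not overlap, but its log2 change of −0.17 did not pass (adjusted p in edgeR 0.114). Its relative Vamp1 had 81.6 ± 7.17 CPM in OIR retina and 88.3 ± 14.4 CPM in normal retina (SD, n = 3 each) and did not pass. Stx3 had 668, 649 and 651 CPM in OIR retina, against 711, 780.4 and 729 CPM in normal retina, and its log2 change of −0.17 missed the threshold (adjusted p in edgeR 0.0994). Stx3 passed only in the fit without normal library 1, with an adjusted p of 0.0362. Stx1a was much scarcer, at 20.98, 15.3 and 19.8 CPM in OIR retina, against 21.3, 18.2 and 16.4 CPM in normal retina, and the groups overlapped.

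Of the synaptotagmins, the calcium sensors of fusion, 2 of 3 fell, against 8.73% lower over all genes tested. Syt2, which in mouse retina labels a subset of cone bipolar cells, showed the largest fall of all members. It had 29.4, 30.4 and 31.9 CPM in OIR libraries 1 to 3, against 50.3, 46.6 and 52.9 CPM in normal libraries 1 to 3, a log2 change of −0.71 with a standard error of 0.08 (adjusted p in edgeR 0.000152). The libraries varied little within each group, and the alternative fits placed the change between −0.76 and −0.67. Syt1, the main fast sensor and the most abundant member by counts, had 1122, 1116 and 1157 CPM in OIR retina, against 1412, 1318 and 1533 CPM in normal retina (log2 change −0.33, adjusted p in edgeR 0.0111). Syt11, a family member that does not bind calcium, had 274 ± 3.78 CPM in OIR retina and 296 ± 28.8 CPM in normal retina (SD, n = 3 each), with overlapping groups (adjusted p in edgeR 0.352).

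Complexins bind assembled SNARE complexes, and this small family was split. Cplx1 and Cplx3 fell, while Cplx2 and Cplx4 did not pass. Cplx1 had 101, 109 and 122 CPM in OIR libraries 1 to 3, against 212, 138 and 173 CPM in normal libraries 1 to 3, a log2 change of −0.66 with a standard error of 0.13 (adjusted p in edgeR 0.00634). Cplx3 had 269, 273 and 290.1 CPM in OIR retina, against 432, 369 and 373 CPM in normal retina, a log2 change of −0.50 with a standard error of 0.08 (adjusted p in edgeR 0.00129). For both, every OIR library was lower than every normal library. Cplx2 had 308, 323 and 321 CPM in OIR retina, against 382, 282 and 341 CPM in normal retina, and its groups overlapped, with a log2 change of −0.08 (adjusted p in edgeR 0.627). Cplx4 had 400.4, 427 and 396 CPM in OIR retina, against 368, 374 and 324 CPM in normal retina. The lowest OIR library exceeded the highest normal library, but its log2 change of 0.20 did not pass (adjusted p in edgeR 0.092). It was the only member to pass upwards in any alternative, with library totals alone (log2 change 0.24, adjusted p in edgeR 0.0461).

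The ratio of complexin genes within a library does not depend on how libraries are scaled. Per kilobase of gene length, Cplx4 stood at 2.51, 2.64 and 2.301 times the level of Cplx3 in OIR libraries 1 to 3, against 1.43, 1.71 and 1.47 times in normal libraries 1 to 3. These multiples use the deposited Cplx4 length of 1751 bases. With the 1941 bases of exons in GENCODE vM21 they would be smaller, by the same factor in every library. The groups were apart, the ratio being 1.62-fold higher in OIR retina, and without any single library the log2 difference stayed between 0.65 and 0.77. It was 0.86 among male and 0.49 among female libraries. Among the conventional pair, the ratio of Cplx1 to Cplx2 was 0.736, 0.7597 and 0.858 in OIR retina, against 1.25, 1.103 and 1.14 in normal retina, also without overlap. Each of these ratios gave p = 0.1 in a two-sided exact permutation test, the smallest that 3 samples against 3 allow, and 0.15 after Benjamini-Hochberg adjustment over the 6 ratios of the family. These ratios were examined after the gene changes had been seen, and each complexin group thus held a member that fell and a member that did not.

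**Figure D3:**
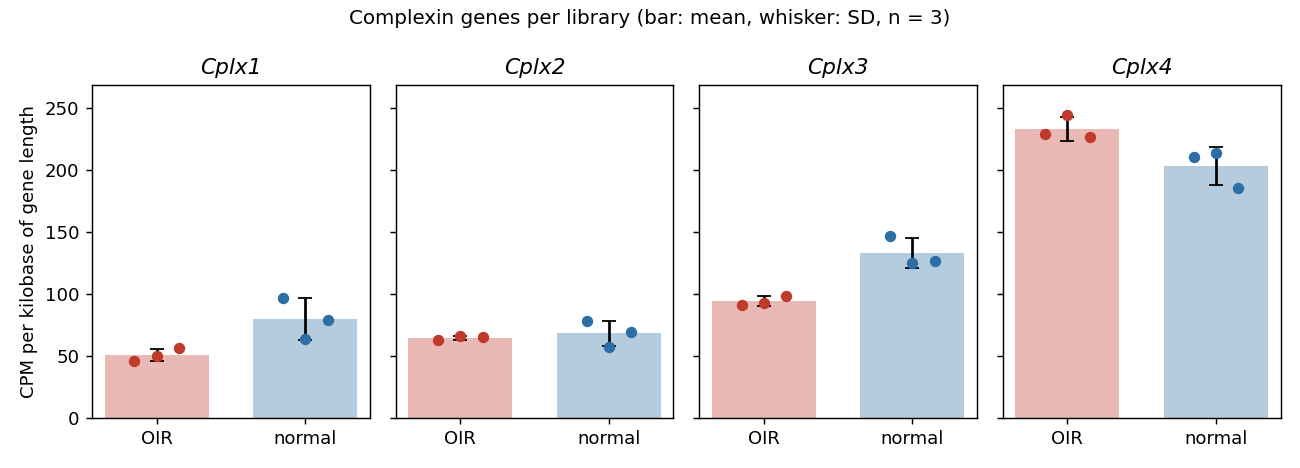
CPM per kilobase of gene length for the complexin genes, with points for the libraries, bars for the mean and whiskers for the SD of 3 libraries, OIR left of normal. Cplx1 averaged 50.5 ± 4.93 in OIR retina and 79.6 ± 16.9 in normal retina, and Cplx3 averaged 93.99 ± 3.75 in OIR retina and 133 ± 12 in normal retina, whereas Cplx4 averaged 233 ± 9.698 in OIR retina and 203 ± 15.5 in normal retina.

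Among genes of the active zone and ribbon, 4 of 10 fell, against 8.73% lower over all genes tested. Bsn, the giant scaffold bassoon that anchors photoreceptor ribbons, had 169, 159 and 166 CPM in OIR retina, against 247, 200.5 and 239 CPM in normal retina, a log2 change of −0.48 (adjusted p in edgeR 0.00238). Pclo, its relative piccolo, had 174, 169 and 149 CPM in OIR retina, against 168, 208 and 223 CPM in normal retina. The Pclo groups overlapped and its log2 change of −0.29 did not pass (adjusted p in edgeR 0.0743), although it passed with DESeq2, with no filter on low counts and without normal library 1. Pclo exons share 496 bases with Gm26954 on the opposite strand, which had 5329 counts against 18048 of Pclo, and the reads there cannot be told apart without strand. The short retinal form of piccolo is not separated in a count per gene. Rims1 and Rims2, the RIM scaffolds that link Rab3 vesicles to calcium channels, fell by 0.33 and 0.34 on the log2 scale (adjusted p in edgeR 0.0061 and 0.0156). Rims1 had 151, 149 and 166 CPM in OIR retina, against 193, 202 and 190.1 CPM in normal retina, and Rims2 had 224, 209.9 and 226 CPM in OIR retina, against 243, 296 and 295 CPM in normal retina. Erc2, the active-zone protein CAST, had 41.5, 40.2 and 45.5 CPM in OIR retina, against 53.7, 52.3 and 54.3 CPM in normal retina (log2 change −0.33, adjusted p in edgeR 0.0114), while its relative Erc1 had 40.7 ± 2.54 CPM in OIR retina and 43.4 ± 4.44 CPM in normal retina (SD, n = 3 each) and did not pass. Rims3, a short RIM, had 83.99 ± 4.9 CPM in OIR retina and 90.1 ± 15.4 CPM in normal retina and did not pass either.

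The gene of the ribbon's own protein did not pass. Ctbp2, from which RIBEYE is made, had 323, 334 and 300.2 CPM in OIR libraries 1 to 3, against 305, 325 and 313 CPM in normal libraries 1 to 3. Its log2 change was 0.02 with a standard error of 0.07 (adjusted p in edgeR 0.871), and the groups overlapped. The gene also makes CtBP2, a widely expressed transcriptional corepressor, from another start site, and counts per gene add the transcripts together. Unc13b and Unc13a, the Munc13 priming factors, did not pass either. Unc13b had 417, 417 and 380.1 CPM in OIR retina, against 305, 486 and 394 CPM in normal retina, so the normal libraries alone spanned the whole OIR range. Unc13a had 154, 169 and 142 CPM in OIR retina, against 146, 134 and 153 CPM in normal retina, with a log2 change of 0.10 (adjusted p in edgeR 0.433), and it shares 495 exon bases with Colgalt1 on the opposite strand (6527 counts against 14914). In all, 16 members share exon bases with another annotated gene and 26 do not.

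Promoter sequences are shown for Syn1 and Cplx3, which fell, for Ctbp2 at the start site of its longest coding transcript, which did not pass at the gene level, and for Sv2b, a ribbon-type gene that fell. They are the 250 bases before a RefSeq start site of each gene (GRCm38.p6), all on the minus strand and written 5′ to 3′, at chrX:20920919-20921168, chr9:57606282-57606531, chr7:133015248-133015497 and chr7:75309263-75309512 in that order. Capitals mark TGACGTCA, the CRE bound by CREB, in Syn1, CACGTG, an E-box, in Cplx3, and TAATCC or its reverse complement, the core of CRX and OTX2 sites, in Ctbp2 and Sv2b. Each window was taken from the gene's promoters that held the marked motif. These were 2 of 4 promoters for Sv2b and 1 of 2 for Ctbp2. Syn1 and Cplx3 had 1 promoter each.
Syn1: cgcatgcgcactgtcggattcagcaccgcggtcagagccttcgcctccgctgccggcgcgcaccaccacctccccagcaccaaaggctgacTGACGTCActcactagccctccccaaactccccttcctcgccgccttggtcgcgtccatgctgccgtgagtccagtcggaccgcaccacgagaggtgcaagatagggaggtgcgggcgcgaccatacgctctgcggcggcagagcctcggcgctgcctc
Cplx3: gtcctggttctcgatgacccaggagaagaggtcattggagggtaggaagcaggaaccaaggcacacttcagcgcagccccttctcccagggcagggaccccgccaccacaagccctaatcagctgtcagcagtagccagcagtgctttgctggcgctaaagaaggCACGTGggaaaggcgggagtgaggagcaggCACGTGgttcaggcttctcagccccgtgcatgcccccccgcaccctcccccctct
Ctbp2: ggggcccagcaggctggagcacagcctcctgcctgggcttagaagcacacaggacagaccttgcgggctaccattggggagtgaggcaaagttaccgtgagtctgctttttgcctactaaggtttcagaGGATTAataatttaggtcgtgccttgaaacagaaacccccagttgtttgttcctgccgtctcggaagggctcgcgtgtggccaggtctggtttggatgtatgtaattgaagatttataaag
Sv2b: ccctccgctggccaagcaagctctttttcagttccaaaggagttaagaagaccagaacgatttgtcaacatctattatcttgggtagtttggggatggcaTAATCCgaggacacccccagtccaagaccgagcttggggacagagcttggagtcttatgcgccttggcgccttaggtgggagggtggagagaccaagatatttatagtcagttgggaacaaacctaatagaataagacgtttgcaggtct
The promoter table held 34 of the 42 members. Searched on both strands of the 250 bases before any start site, TAATCC was present in 5 of them (Ctbp2, Dlg4, Rims3, Sv2b and Syp) and in 7.21% of all genes, or 6.25% of all promoters. CACGTG was present in 4 members, 6.86% of all genes and 6.02% of all promoters. GGGCGG, the GC box, was present in 20 members, 35.4% of all genes and 32.7% of all promoters, and the median GC content was 58.8% over the members' promoters and 52.4% over all. TGACGTCA was present in Syn1 alone, 1.77% of all genes and 1.55% of all promoters. Of the members with each motif, 1 of 5 with TAATCC, 3 of 4 with CACGTG and 9 of 20 with GGGCGG were called lower, against 18 of all 34. The marked matches overlapped none of the other motifs searched. A match is a run of letters and not evidence of binding. GENCODE vM21 lists 20 Ctbp2 transcripts, and the Ctbp2 window shown ends at the start of the one with the longest coding part, 2964 bases, the RIBEYE form, against 1335 bases for the next longest.

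Of the adhesion and scaffold genes, 3 of 8 fell, against 8.73% lower over all genes tested. Shank2 and Shank1 encode postsynaptic scaffolds that hold glutamate receptor complexes. Shank2 had 89.8, 88.3 and 80.4 CPM in OIR retina, against 122, 115 and 124 CPM in normal retina. Shank1 had 60.8, 65.1 and 68.6 CPM in OIR retina, against 98.02, 77.8 and 87.4 CPM in normal retina. Their log2 changes were −0.48 and −0.44 (adjusted p in edgeR 0.00114 and 0.00851), with no overlap in either gene. Nrxn3, a presynaptic neurexin, had 158, 153 and 162 CPM in OIR retina, against 179, 194 and 210.3 CPM in normal retina (log2 change −0.30, adjusted p in edgeR 0.0146). The neurexin gene Nrxn2 had 250.4 ± 3.84 CPM in OIR retina and 280.0 ± 37.7 CPM in normal retina (SD, n = 3 each), with overlapping groups. Dlg4, which encodes the scaffold PSD-95 and in retina is also present in photoreceptor terminals, had 829.8, 881 and 811 CPM in OIR retina, against 910.1, 936 and 816 CPM in normal retina, with a log2 change of −0.08 (adjusted p in edgeR 0.523). The neuroligin genes Nlgn1 and Nlgn2, partners of the neurexins, had log2 changes of −0.01 and 0.02, and Homer1, a receptor scaffold, one of 0.08. These last 3 had overlapping groups and adjusted p in edgeR 0.955, 0.889 and 0.534.

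Per kilobase of gene length the most abundant members were the same 10 genes in both groups, with small shifts in order. The deposited length of Cplx4 is 1751 bases, against 1941 bases of exons in GENCODE vM21, and the deposited one was used. In CPM per kilobase, Cplx4 averaged 233 ± 9.698 in OIR retina and 203 ± 15.5 in normal retina, and Vamp2 averaged 231 ± 6.95 in OIR retina and 259.7 ± 11.5 in normal retina (SD, n = 3 each). In OIR retina these genes differed by less than their spread, and in normal retina Vamp2 led by more than their SDs. With the longer exon length, a choice made after the data had been seen, Cplx4 averaged 210.1 ± 8.75 in OIR retina and 183 ± 13.99 in normal retina, so that Vamp2 led in both groups. Rab3a followed in both groups at 144 ± 10.3 in OIR retina and 182 ± 26.3 in normal retina, with Syt1, Snap25, Dnm1, Syp, Stx3, Cplx3 and Sv2a after it. In OIR retina, Rab3a and Syp, which averaged 141 ± 4.05 in OIR retina and 143 ± 16.1 in normal retina, lay within their SDs of each other, as did Snap25 and Dnm1. Syn3 was the lowest in both groups, at 0.719 ± 0.05896 in OIR retina and 0.905 ± 0.1201 in normal retina.

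Ribbon-type isoforms were then set against their conventional counterparts within each library. Of 7 genes tied to ribbons, 3 fell (Cplx3, Rims2 and Sv2b), with a median log2 change of −0.17. Of 8 genes counted here as conventional, 5 fell (Syn1, Syn2, Cplx1, Rims1 and Sv2a), with a median of −0.39. Over all genes tested, 8.73% were lower. Without single libraries, 2 to 4 ribbon genes and 5 conventional ones fell. The OIR and normal libraries did not overlap for 5 of the 7 ribbon genes, 1 of them higher in OIR, and for 5 of the 8 conventional genes, against 36.8% of all genes. Whether the classes differ was not tested. In the 5 isoform ratios computed per kilobase, the OIR and normal libraries overlapped each time. The summed complexins 3 and 4 stood at 2.95, 2.92 and 2.68 times complexins 1 and 2 in OIR libraries 1 to 3, against 2.04, 2.82 and 2.102 times in normal libraries 1 to 3. Normal library 2 lay among the OIR values and the other two normal libraries lay below them. The log2 difference was 0.31, with p = 0.2 in a two-sided exact permutation test and 0.5 adjusted over the 5 ratios. Leaving out single libraries gave 0.23 (without normal library 1) to 0.46 (without normal library 2), and raw counts without the gene length gave 0.12. The difference was 0.49 among male and −0.0026 among female libraries.

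In the other ratios the groups overlapped too, and none passed. Stx3 stood at 14.9, 19.8 and 15.3 times Stx1a in OIR retina and 15.6, 19.97 and 20.7 times in normal retina, a log2 difference of −0.17 (exact permutation p = 0.2). It was 0.14 among male and −0.40 among female libraries, and leaving out single libraries gave −0.30 (without OIR library 2) to −0.10 (without normal library 3). Unc13b stood at 1.499, 1.37 and 1.49 times Unc13a in OIR retina and 1.16, 2.01 and 1.43 times in normal retina, a log2 difference of −0.04 (exact permutation p = 0.9). This one was 0.09 among male and −0.43 among female libraries, and −0.23 to 0.17 without single libraries. Rims2 against Rims1 and Sv2b against Sv2a differed by −0.0028 and 0.04 on the log2 scale (exact permutation p = 1 and 0.7). Leaving out single libraries moved these last values between −0.09 and 0.06 and between −0.01 and 0.09. A p of 0.1 is the smallest this design allows, so these tests could not pass, and they do not show that the isoforms acted alike.

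**Figure D4:**
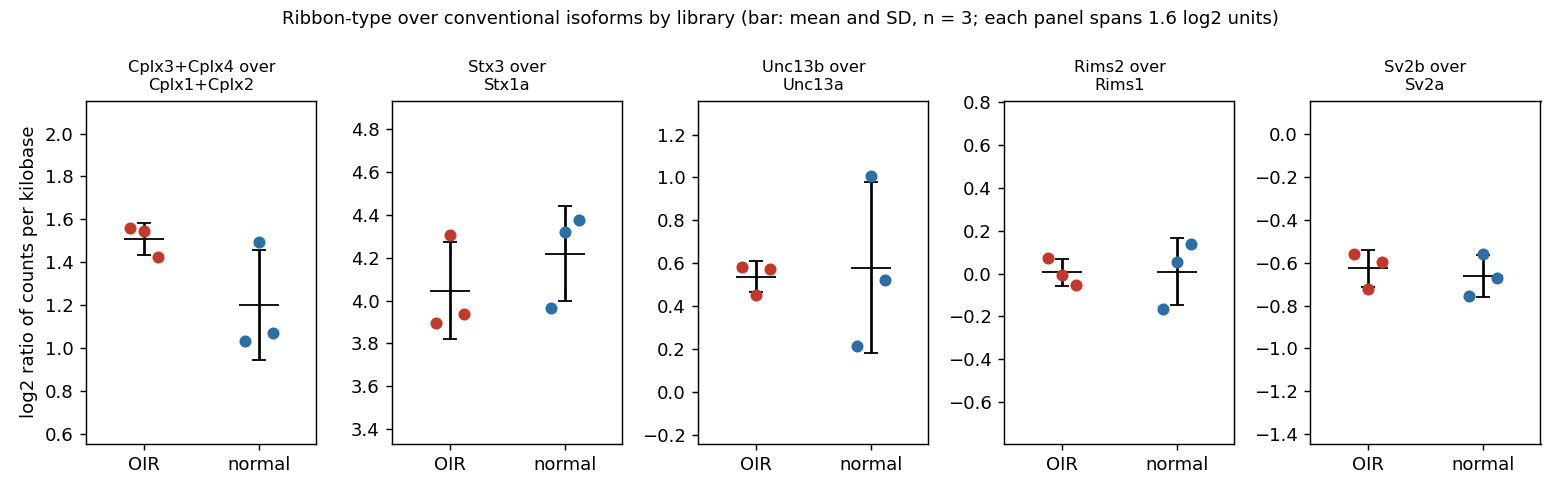
Log2 ratio of ribbon-type over conventional isoforms, in counts per kilobase, for each library, with the mean and SD of 3 libraries, OIR left of normal. The groups overlap in all 5 panels, and the widest spread is that of Unc13b over Unc13a in normal retina, with an SD of 0.3996.

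Other synaptic genes were grouped by role, in lists chosen with earlier results of these data known. Of 165 tested, 63 fell and 8 rose, with a median log2 change of −0.19, against 8.73% lower and 11.1% higher over all genes. Of the rest of the release machinery, 13 of 41 fell and 2 rose, while 4 rose with no filter on low counts and with the replicate number as a block. Rph3a, the Rab3 effector rabphilin, had 161 ± 17.01 CPM in OIR retina and 293 ± 40.6 CPM in normal retina (SD, n = 3 each), a log2 change of −0.86 (adjusted p in edgeR 0.000287). Cadps, a factor for priming dense-core vesicles, had 283 ± 20.2 CPM in OIR retina and 442 ± 31 CPM in normal retina, Rab3c had 104 ± 10.6 CPM in OIR retina and 163 ± 11.8 CPM in normal retina, and Syt9 had 75.9 ± 0.642 CPM in OIR retina and 107 ± 5.24 CPM in normal retina, with adjusted p in edgeR between 0.000282 and 0.000733. The genes that rose were Stx2 and Vamp3, SNAREs that most cell types express, with log2 changes of 0.66 and 0.39. Of the vesicle membrane and recycling genes, 12 of 33 fell, among them the endophilin gene Sh3gl2 (−0.49), the dynamin gene Dnm3 (−0.44), the clathrin adaptor gene Snap91 (−0.46) and the proton pump gene Atp6v0a1 (−0.37), all as log2 changes. The 3 that rose were Syngr2 (0.65), Sypl (0.35) and Sh3gl1 (0.31), relatives of neuronal vesicle proteins with broad expression, and 0 or 1 rose without normal library 3, OIR library 1 or OIR library 2. Without OIR library 1 the number of recycling genes that fell was 6, and it was 7 without normal library 3 or OIR library 2 and with sex in the model.

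The vesicular transporters that set a vesicle's transmitter fell in 4 of 8 cases, against 8.73% lower over all genes tested. Slc17a7, the glutamate transporter VGLUT1 of photoreceptors and bipolar cells, had 1535, 1555 and 1582 CPM in OIR retina, against 1979, 1828 and 1751 CPM in normal retina (log2 change −0.25, adjusted p in edgeR 0.0331). Slc32a1, the GABA and glycine transporter of amacrine cells, changed by a similar amount (−0.24, adjusted p in edgeR 0.027), and the rarer Slc17a8 and Slc18a3, which mark small amacrine classes, had log2 changes of −0.57 and −0.62. In the fits with sex or the replicate number, and without OIR library 1 or 2, 2 of the transporters passed. Among calcium channels and sensors, 9 of 19 fell and 0 rose, while 12 were lower and 0 higher at an unadjusted p under 0.05. The falls were led by the channel subunit gene Cacna2d3 (log2 change −0.80, adjusted p in edgeR 0.000189), Cacna2d2 (−0.42) and the calcium pump gene Atp2b2 (−0.56). Cacna1f and Cacna2d4, channel genes of the photoreceptor ribbon, and the calcium-binding protein gene Cabp4 did not pass. Their log2 changes were −0.22, −0.04 and −0.12 in that order (adjusted p in edgeR 0.0787, 0.775 and 0.388). They were singled out after their values had been seen.

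On the receiving side of the photoreceptor ribbon, 11 of 22 genes of the contact with ON bipolar cells fell and 2 rose. Over all genes tested, 8.73% were lower and 11.1% higher. Grm6, the glutamate receptor mGluR6 of ON bipolar dendrites, had 145, 144 and 152 CPM in OIR retina, against 213, 222 and 230.1 CPM in normal retina, a log2 change of −0.59 with a standard error of 0.06 (adjusted p in edgeR 9.85e-05). Trpm1, the channel it controls, had 279.5, 269.7 and 264 CPM in OIR retina, against 378, 399 and 435 CPM in normal retina (log2 change −0.58, adjusted p in edgeR 0.000288). The regulators Gpr179 and Rgs7 had log2 changes of −0.54 and −0.62. The groups did not overlap for any of these 4 genes. Gnb3, a G protein beta subunit of ON bipolar cells and cones, went the other way, with 503, 474 and 373 CPM in OIR retina, against 268, 275 and 246 CPM in normal retina (log2 change 0.78, adjusted p in edgeR 0.000522), and Dag1, the matrix receptor dystroglycan, rose by 0.26. In several of the alternatives a single gene of this list rose, and 4 did with library totals alone or without normal library 1. Among the other adhesion and scaffold genes, 14 of 42 fell and 1 rose. Slitrk2, a postsynaptic adhesion gene, had 23.3 ± 2.64 CPM in OIR retina and 47.1 ± 3.097 CPM in normal retina (SD, n = 3 each), a log2 change of −1.01 (adjusted p in edgeR 6.34e-05), and the scaffold gene Dlg2 and the calsyntenin gene Clstn3 had log2 changes of −0.57 and −0.45. Mdga1 rose by 0.25, and no gene of its list was higher in 9 of the 15 alternative fits. Without normal library 3, OIR library 1 or OIR library 2, 8, 8 and 9 of these adhesion genes fell, and without normal library 3, 8 of the release genes did.

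Part of the markers of the neurons that carry these synapses fell, and their part in the synaptic result was not tested. The marker lists, too, were chosen with earlier results of these data known. Over all genes tested, 8.73% were lower and 11.1% higher by the same edgeR test. By that test, 8 of 12 amacrine, 4 of 6 horizontal, 6 of 12 bipolar, 5 of 14 rod and 2 of 10 cone markers fell. Of the ganglion cell markers 1 of 12 fell, or 8.33%, near the share over all genes. None of the markers in these lists rose, nor was any higher at an unadjusted p under 0.05. These lists share Tfap2b, and they share Slc32a1, Slc18a3, Slc17a6, Cabp5 and Gpr179 with the synaptic lists. Summed amacrine markers held 1424 to 1554 CPM in OIR libraries and 1750.2 to 2006 CPM in normal libraries, and summed bipolar markers 1446 to 1557 CPM in OIR libraries and 1889 to 1939 CPM in normal libraries. Horizontal markers summed to 469 to 525 CPM in OIR libraries and 663 to 740.4 CPM in normal libraries. Ganglion cell markers summed to 1234 to 1372 CPM in OIR libraries and 1234 to 1961 CPM in normal libraries, with normal library 2 the lowest of its group. Gad1, the GABA-making enzyme of amacrine cells, had a log2 change of −0.65, Calb1 of horizontal cells one of −1.06 and Prkca of rod bipolar cells one of −0.53 (adjusted p in edgeR 0.000225, 0.00012 and 0.000451). Müller glia markers fell in 6 of 11 cases and rose in 2, and pigment epithelium markers fell in 6 of 10. Endothelial and microglial markers rose in 8 of 10 and 6 of 10 cases, astrocyte markers rose in 1 and fell in 1 of 6, and none of 5 tested oligodendrocyte and forebrain markers passed. At an unadjusted p under 0.05, 1 did.

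**Figure D5:**
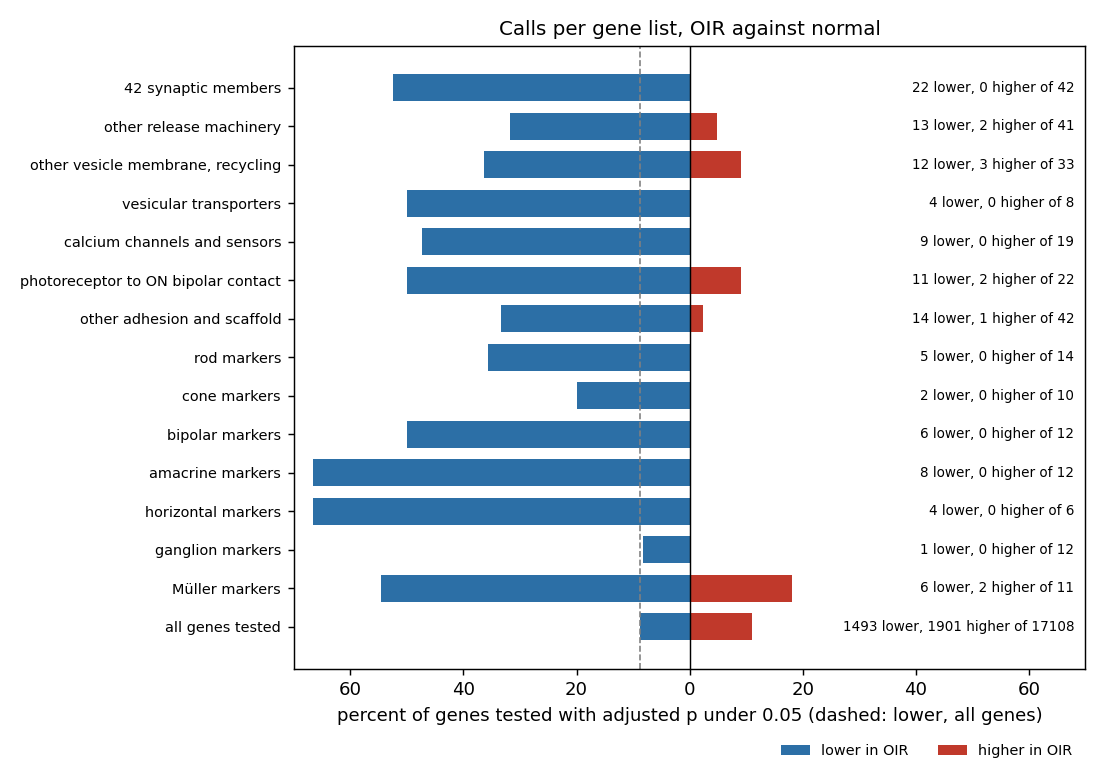
Percent of the genes tested in each list that were lower (left) or higher (right) in OIR retina at an adjusted p under 0.05, with the counts at the right edge and the share lower over all genes as a dashed line. The synaptic members reach 52.4% lower, amacrine and horizontal markers 66.7%, and ganglion cell markers 8.33%.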

How the data were processed

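RNA of 6 mouse retina samples was extracted with TRIzol and made into libraries with the NEBNext Ultra RNA kit, per the labels' protocols. The deposited values are raw counts per gene, with gene length in the same table. The submitters' processing notes name HISAT2 2.0.5, featureCounts 1.5.0-p3, fastp, CASAVA 1.8, DESeq2 1.20.0 and the mm10 build. The sources used here do not give the annotation release, strand setting or read filters, and counts per gene merge isoforms. OIR columns carry group, day and number, and the columns without OIR were matched to the normal samples of that number. Within a group, libraries differed by more than counting error (chi-square over its degrees of freedom 7.203 to 23.1, genes with at least 40 counts).

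Genes were kept with edgeR's filterByExpr (minimum count 10, total 15), scaled by TMM and tested with edgeR 4.0.16 (R 4.3.3) by the quasi-likelihood test, adjusted by Benjamini-Hochberg over all genes. A standard error is the absolute log2 change over the square root of F. Isoform ratios used counts per kilobase of deposited length and exact permutation tests (scipy 1.17.1). Members and lists were chosen with earlier results of these data known. Every member was named, and of each other synaptic list up to 4 genes with the smallest adjusted p among those that passed. The genes of these lists that rose, and Cacna1f, Cacna2d4 and Cabp4, were named after their values had been seen. Alternatives were DESeq2 1.42.0, limma-voom 3.58.1, other scalings and filters, a replicate block, sex, lens genes left out and each library left out. Exons came from GENCODE vM21 and promoters from RefSeq (GRCm38.p6).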

Additional observations from a re-analysis of the deposited data

How the results depend on the processing

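Of the 22 members that fell, all were below 0 in all 15 alternative fits. Those fits reuse the libraries in which these members' groups lay apart, so the sign could hardly turn. Leaving out single libraries gave 15 to 22 lower members and 0 higher, beside 761 to 1734 lower and 1237 to 2097 higher genes over the whole table (1493 and 1901 with all libraries). Fewer samples were fitted there, and the cause of other shifts was not tested. DESeq2 gave 23 lower members, limma-voom 22, library totals alone 20, with 1 higher (Cplx4), and sex in the model 20. The fit with the replicate number as a block gave 21 lower members (Rab3a was lost) and, over all genes, 1166 lower and 1680 higher. Same-numbered samples correlated at 0.0609, −0.182, 0.0712 in their deviations from the group means, no sample correlated best with its own number, and the numbers were not taken to pair the samples. Signs turned only for members near 0. The log2 change of Stx1a was −0.00154 with DESeq2, −0.00284 with limma-voom, −0.00142 with median-of-ratios size factors, −0.000343 with no filter and −0.0658 with sex. With library totals alone Syp was at 0.0226 and Nlgn1 at 0.0296. With sex in the model Rims3 was at 0.00116 and Unc13b at −0.0171. Without single libraries the ranges that crossed 0 were −0.192 to 0.0248 for Cplx2, −0.123 to 0.208 for Unc13b, −0.0921 to 0.0691 for Syp, −0.0234 to 0.0488 for Ctbp2, −0.089 to 0.12 for Stx1a, −0.0917 to 0.0904 for Nlgn1 and −0.0251 to 0.0808 for Nlgn2, and among the isoform ratios −0.225 to 0.171 for Unc13b over Unc13a, −0.0896 to 0.0616 for Rims2 over Rims1 and −0.0106 to 0.0855 for Sv2b over Sv2a. With raw counts in place of counts per kilobase, the complexin difference was 0.116 (exact permutation p = 0.4); the other ratios are of single genes, which a length cannot change. Adding 0.5 count turned no direction. With 3 samples a group, an exact test cannot go below p = 0.1. Counting error was not separated from the spread between samples for each member. It weighs most on the scarcest one, Syn3, at 142 to 197 counts per library.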
